A study of Mus musculus with 71 samples.

Results

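The clustered histone genes of the mouse were followed through 71 libraries of bulk RNA from brain tissue. They were taken as every gene whose symbol in GENCODE mouse release M21 begins with Hist1h, Hist2h, Hist3h or Hist4h and that held at least 10 counts summed over the libraries. The rule gave 64 of the 55416 genes in the table, out of 70 that carry such a symbol. By histone type they were 6 H1, 17 H2A, 18 H2B, 10 H3 and 13 H4 genes. C57BL/6J mice had been burned, excised or sham-treated on the skin, and the study asked which molecular changes a non-severe burn leaves in the brain. The burn was made on the right dorsal flank with a heated brass rod 19 mm across that touched the skin for 10 s. The excision removed skin in its full thickness from the back. Sham mice were shaved there without injury, so the burn and its control also differed in the place of the procedure. Isoflurane, buprenorphine and paracetamol in the drinking water belonged to the protocol of the 3 groups. From the hippocampus came 10 libraries of burn, 10 of excision and 9 of sham mice, and from the frontal cortex 10, 10 and 8, each region in 2 batches. The piriform cortex gave 5 burn, 4 excision and 5 sham libraries, all in batch 3. The titles of all these batch 3 libraries name the frontal cortex instead, and the region was taken from the tissue field. The sources used here do not give age, sex, the time after injury or the animal behind each library. P-values therefore measure the spread between these libraries, which may in part be technical.

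Core histones H2A, H2B, H3 and H4 form the protein spool around which DNA is wound, and the linker histone H1 binds the DNA that enters and leaves it. The clustered genes are known as replication-dependent: dividing cells transcribe them in S phase, and their mRNA ends not in a poly(A) tail but in a short stem-loop bound by the protein SLBP. Most neurons no longer divide, and some clustered genes are known to make polyadenylated transcripts in such cells. Variant histones encoded outside the clusters serve chromatin throughout the cell cycle. How the libraries were made from total RNA (by poly(A) selection or by removal of ribosomal RNA) is not given in the sources used here, so levels of these transcripts may depend on their 3′ ends.

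The members lie in few places of the genome (GRCm38). Chromosome 13 holds 24 of them between 21715763 and 22043676, here called the first block, and 30 between 23531050 and 23934156, the second block. Each block mixes the types: the first has 8 H2A, 8 H2B, 5 H4, 2 H3 and 1 H1 genes, and the second has 7 H2B, 7 H3, 6 H4, 5 H2A and 5 H1 genes. Hist1h2al stands alone on chromosome 13 (51202727 to 51203065). Chromosome 3 holds 5 members (96219865 to 96263311), chromosome 11 holds 3 (58948920 to 58956830), and Hist4h4 lies on chromosome 6 (136801553 to 136804415). The annotation lists Hist1h2al, Hist1h2aj and Hist3h2bb-ps as pseudogenes. Of the 6 symbols below the minimum, Hist1h2aa held 7 counts. Hist2h2aa1, Hist2h2aa2, Hist2h2bb, Hist2h3b and Hist2h3c1 are listed at 0 in every library. All exon bases of those 5 lie inside other annotated genes that did receive counts, such as Gm20632 (14256 counts), so their zeros do not show that the genes are silent.

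A match to the histone stem-loop was found in annotated transcripts of 43 members, against 21 of 21834 other protein-coding genes (0.096%). The sequences below are shown because the stem of the H4 genes differs from that of the other types, among which the same elements recur. They were taken from the GRCm38 transcripts, run 5′ to 3′ in DNA letters, and have the 16 bases of the element in capitals.
Hist1h1c: caaaaGGCTCTTTTCAGAGCCaccact
Hist3h2a: ccaaaGGCTCTTTTCAGAGCCacccac
Hist1h2bm: acaaaGGCTCTTTTCAGAGCCactaag
Hist1h2bp: acaaaGGCTCTTTTCAGAGCCacccac
Hist1h2bb: ccaaaGGCTCTTTTAAGAGCCacccac
Hist3h2ba: ccaaaGGCTCTTTTCAGAGCCaccttc
Hist2h3c2: acaaaGGCTCTTTTCAGAGCCaccaca
Hist1h4h: ccaaaGGCCCTTTTCAGGGCCgcccac
Hist1h4j: ctaaaGGTCCTTTTCAGGACCaccaca
The first of these elements, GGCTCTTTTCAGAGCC, occurs in 23 members (3 H1, 8 H2A, 8 H2B and 4 H3) and in 0 H4 genes. The element of Hist1h4h occurs in 7 members, all H4. The 12 H4 members with a match carry a GGCCC or GGTCC stem, which 0 members of the other types carry. In 22 members an annotated transcript runs over 100 bases past the element, and these members held 51.1% of the counts of the group. A member without a match has none in its annotated transcripts, which for several H2B genes end soon after the coding sequence.

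Reads cannot always be assigned to one gene of this family, because the copies are close to identical. In 24 members at least 50% of the windows of 100 bases, the read length, also occur in another gene, and 6 members share no window. The first 100 coding bases of the H2B genes that the results turn on are shown from GENCODE M21 transcripts, with each base that differs from Hist1h2bq in capitals.
Hist1h2bq: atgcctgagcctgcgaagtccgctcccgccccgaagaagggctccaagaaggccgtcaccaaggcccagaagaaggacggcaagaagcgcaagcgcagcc
Hist1h2br: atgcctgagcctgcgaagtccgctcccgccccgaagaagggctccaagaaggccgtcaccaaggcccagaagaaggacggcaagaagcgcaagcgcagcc
Hist1h2bc: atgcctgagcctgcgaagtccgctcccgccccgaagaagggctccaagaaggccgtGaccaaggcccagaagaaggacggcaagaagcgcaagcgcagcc
Hist1h2bl: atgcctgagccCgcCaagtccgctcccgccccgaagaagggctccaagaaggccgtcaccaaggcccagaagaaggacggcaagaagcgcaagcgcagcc
Hist1h2bp: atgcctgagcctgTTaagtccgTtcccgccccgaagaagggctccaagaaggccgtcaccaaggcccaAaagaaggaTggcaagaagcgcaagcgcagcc
Hist1h2bm: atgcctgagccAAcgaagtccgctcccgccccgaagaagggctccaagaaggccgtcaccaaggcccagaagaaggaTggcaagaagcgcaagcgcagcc
Hist1h2bb: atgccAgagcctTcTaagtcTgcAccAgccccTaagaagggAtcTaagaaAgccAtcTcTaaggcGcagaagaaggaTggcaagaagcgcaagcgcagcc
Hist3h2ba: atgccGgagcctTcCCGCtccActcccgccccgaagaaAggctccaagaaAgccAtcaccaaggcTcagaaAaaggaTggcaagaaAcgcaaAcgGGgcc
Over the whole coding sequence of 381 bases, Hist1h2br differs from Hist1h2bq at 0 bases, Hist1h2bc at 2, Hist1h2bl at 4, Hist1h2bp at 6, Hist1h2bm at 8 and Hist1h2bb at 18. Hist3h2ba, from chromosome 11, differs at 36 bases (90.6% identity), and Hist2h2be, from chromosome 3, at 48 (87.4%). The deposited counts reflect this: Hist1h2bq held 18571 counts in all and Hist1h2br 18601. Hist1h2bq took 49.3 to 50.4% of the pair's counts in each of the 71 libraries, with equal counts in 30 of them and a largest difference of 7 counts. These 2 genes therefore give a single measurement, reported under both names. Reads that match several copies may have been counted at each copy. Sums, shares and numbers of H2B members would then hold the same reads more than once. The H4 pair Hist1h4m and Hist1h4n held 2040 and 2019 counts, equal in 44 libraries, and the H2A pair Hist1h2ao and Hist1h2ap held 92 and 93. All 17 H2A members also have exon bases inside other annotated genes. For Hist3h2a, 33.0% of its exon bases lie inside Trim17, and whether counting used the strand is not given in the sources used here.

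The 200 bases before the annotated start are shown for 4 members from both ends of the results, because the H2A and H2B genes share motifs there that other promoters hold less often. They come from RefSeq (GRCm38.p6), read 5′ to 3′ on the strand of the gene, with matches to CCAAT, to the box TATAAA and to ATTTGCAT on either strand in capitals.
Hist1h2bq, chr13:21810200-21810399, minus strand: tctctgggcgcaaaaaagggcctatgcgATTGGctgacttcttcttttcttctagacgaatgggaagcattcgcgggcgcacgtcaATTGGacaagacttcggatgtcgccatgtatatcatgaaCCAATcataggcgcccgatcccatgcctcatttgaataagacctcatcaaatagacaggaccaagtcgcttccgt
Hist1h2bm, chr13:21721844-21722043, plus strand: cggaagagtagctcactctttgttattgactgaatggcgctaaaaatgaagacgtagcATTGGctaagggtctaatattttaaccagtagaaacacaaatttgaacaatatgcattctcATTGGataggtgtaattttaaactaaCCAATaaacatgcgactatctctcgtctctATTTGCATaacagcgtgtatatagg
Hist3h2a, chr11:58954485-58954684, plus strand: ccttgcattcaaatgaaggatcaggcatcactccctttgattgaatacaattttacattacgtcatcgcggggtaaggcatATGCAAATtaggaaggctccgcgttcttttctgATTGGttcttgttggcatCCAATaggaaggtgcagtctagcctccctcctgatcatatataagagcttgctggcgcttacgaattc
Hist3h2ba, chr11:58948711-58948910, plus strand: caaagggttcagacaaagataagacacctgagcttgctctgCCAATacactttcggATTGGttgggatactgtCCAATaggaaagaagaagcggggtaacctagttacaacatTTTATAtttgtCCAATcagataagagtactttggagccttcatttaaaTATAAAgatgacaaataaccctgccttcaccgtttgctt
A RefSeq promoter window of 250 bases before to 50 after the start was matched for 56 members, and 8 had no entry. CCAAT occurred in 83.9% of these windows, against 41.1% of the 27025 windows of all genes. By type it was present in 25% of the H4 windows and in 100% of those of H1, H2A, H2B and H3. TATAAA occurred in 58.9% against 15.7% of all windows. ATTTGCAT, the octamer bound by POU factors such as OCT1, occurred in 21.4% against 1.97%, namely in 40% of H2A and 40% of H2B windows and in 0% of the other types. H2A and H2B genes can stand head to head, such as Hist1h2bl (minus strand, to 21716143) and Hist1h2ai (plus strand, from 21716422). Windows of such neighbours overlap, so a match on either strand can count for both genes. No motif of the 3 contains another. A match describes the letters alone and is not evidence of binding.

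Libraries held 6652468 to 87775812 counts, and 4 hippocampus libraries held under 10000000. The clustered histone genes took 0.0081 to 0.0289% of a library, 578472 counts in all. Treatment was taken from the treatment field of the labels, from which the title departs in 4 libraries: frontal cortex burn replicates 7 and 8, frontal cortex excision replicate 7 and piriform cortex sham replicate 2. The library labelled piriform cortex sham replicate 1 goes against its label. It held the dentate gyrus genes Prox1 at 43.6 and C1ql2 at 101 CPM (a counts-per-million scale) and the choroid plexus gene Ttr at 186 CPM, while the other piriform sham libraries held Prox1 at 6.37 to 7.79 CPM. Frontal cortex sham replicate 1 stood apart in the histone sums themselves, with 154 CPM for H2B against 100.3 to 125 CPM in the other sham libraries of its region. Calls that rest on these libraries are given without them as well. In bulk tissue, fewer cells of a type and less RNA per cell cannot be told apart.

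In the deposited counts of these brains the clustered histone signal was mostly H2B. This ranking also depends on how reads were assigned to overlapping and near-identical genes. On the scale of CPM per kilobase of exon, which allows genes to be compared, Hist1h2bc stood highest with a mean of 31.8 over the libraries. Next came Hist3h2ba, an H2B gene outside the large clusters, at 24.6, and Hist1h2bg at 15.6. The linker histone gene Hist1h1c, which encodes H1.2, followed at 11.4. Hist1h2ba, known for its testis-specific H2B protein, was at 8.57 on this scale. It shares 27.4% of its windows of a read's length with other genes, first of all Hist1h2bj, so this level may hold reads of other copies. The highest H3 gene was Hist2h3c2 at 6.89, the highest H2A gene Hist3h2a at 5.79, and the highest H4 genes were Hist1h4k at 4.44 and Hist1h4h at 4.23. Hist2h2be and Hist1h2be, H2B genes with long annotated transcripts, were at 2.59 and 2.16. Most members lay far lower: 27 had a mean of at least 1 CPM, 4 of at least 10 CPM, and 17 stayed under 0.1 CPM. Counts were present in every library for 36 members. The 3 members with the most counts held 42.2% of the counts of the group, and the leading 10 held 75.7%.

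**Figure D1:**
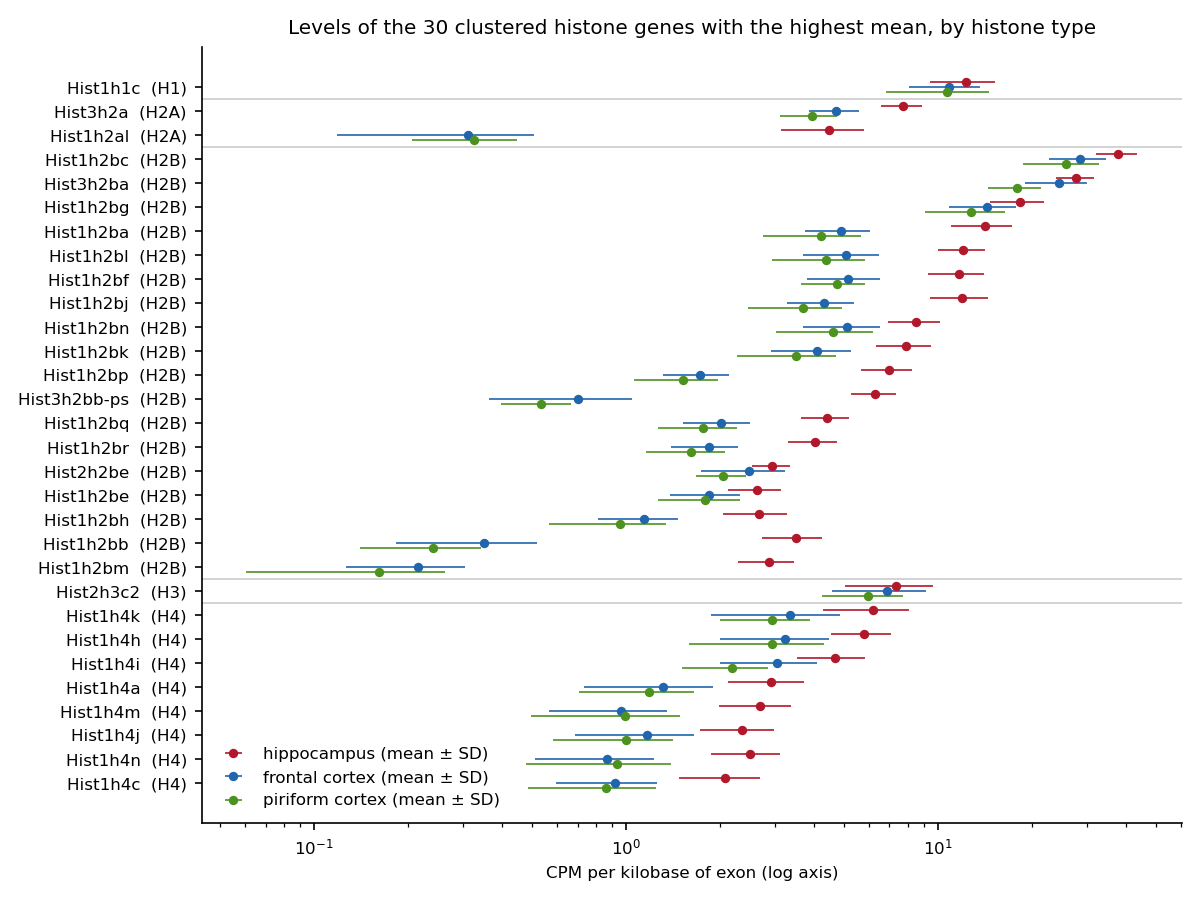
Mean ± SD over the libraries of each region, in CPM per kilobase of exon on a log axis, for the 30 members with the highest mean, grouped by histone type. The H2B gene Hist1h2bc leads in the hippocampus (37.9), the frontal cortex (28.6) and the piriform cortex (25.8), while Hist1h2al is at 4.47 in the hippocampus and at 0.312 and 0.327 in the cortices.

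H2B genes took 67.4 ± 2.76% of the member counts of a library (SD, n = 71), H1 genes 11.9 ± 2.42%, H2A genes 8.62 ± 1.26%, H4 genes 6.75 ± 1.37% and H3 genes 5.25 ± 1.36%. Counted per kilobase, H2B took 71.9%, H4 came next with 11.04%, and H1 and H2A took 6.84 and 4.98%. The mix differed somewhat by region. H1 took 9.88 ± 1.31% in the hippocampus (SD, n = 29), 12.9 ± 1.72% in the frontal cortex (SD, n = 28) and 14.3 ± 2.04% in the piriform cortex (SD, n = 14). H3 took 4.23, 5.93 and 6.00% in the same order, while H2B took 69.0, 66.8 and 65.5%. These shares are descriptions and were not tested. They also depend on read assignment. All 17 H2A members have exon bases inside other annotated genes, and reads of near-identical H2B copies may be counted more than once.

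Sham libraries of the hippocampus were compared with those of the frontal cortex to describe the regions without injury. The hippocampal ones held 7339556 to 39541738 counts and the frontal ones 47441392 to 80407008, so region and depth cannot be told apart. CPM values are normalised within each region, and fold changes between regions come from a fit normalised over both. Of the 40 members tested, 22 were higher in the hippocampus and 0 were lower. Hist1h2bm and Hist2h2ac passed the count filter through the hippocampus alone, with 0 frontal libraries at its minimum, and so had to be higher. Of the other 38 members, 20 were higher, while 18 were not called, among them Hist1h2bc, Hist3h2ba, Hist1h2bg and Hist1h1c. The minimum was 0.253 CPM in at least 8 libraries. The 38 still hold members with some frontal libraries below it, such as Hist1h2al, Hist1h2bb and Hist3h2bb-ps. Such members passed with the help of the hippocampus, which favours a call of higher. Over all 19336 genes tested, 41% were called in either direction and 20.8% were called higher, by edgeR's quasi-likelihood test with a Benjamini-Hochberg adjusted p under 0.05, which is what called means below. The median log2 fold change of the 38 was 0.55, against -0.0016 over all genes. Among the 38, higher members were 2 of 3 H2A, 11 of 17 H2B, 6 of 10 H4, 1 of 3 H1 and 0 of 5 H3 genes. Of the H3 genes, 1 had an unadjusted p under 0.05, as had 48.1% of all genes.

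The widest gaps were in a few H2B and H2A genes that were close to absent from the cortex. Hist1h2bm (chromosome 13, 21722044 to 21722567) was at 0.972 to 1.88 CPM in sham hippocampus (median 1.54), at 0.0585 to 0.193 in sham frontal cortex (median 0.124) and at 0 to 0.158 in sham piriform cortex (median 0.0598). Every hippocampal library thus lay above every cortical one. The means were 1.48 ± 0.273 (SD, n = 9) and 0.127 ± 0.0501 CPM (SD, n = 8), given here as a description because of how the gene passed the filter. Over all treatments, the hippocampus means of this gene were 1.48 CPM in sham, 1.63 in excision and 1.40 in burn.

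Hist1h2bb, an H2B gene of the second block (23746734 to 23747241), was at 1.12 to 2.15 CPM in sham hippocampus (median 1.84) and at 0.115 to 0.382 in sham frontal cortex (median 0.194). The groups did not overlap, and the log2 fold change was 3.05 (SE 0.232). Some frontal libraries lay under the filter's minimum of 0.253 CPM, so this fold change is a description. The H2B pseudogene Hist3h2bb-ps on chromosome 11 (58954048 to 58954512) was at 2.33 to 3.14 CPM (median 2.83) against 0.122 to 0.473 CPM (median 0.338). Its log2 fold change was 3.17 (SE 0.226), a description for the same reason. It lies between Hist3h2ba and Hist3h2a, whose own differences were 0.14 and 0.71.

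The H2A pseudogene Hist1h2al was at 0.712 to 2.25 CPM in sham hippocampus (median 1.27) and had a mean of 0.131 ± 0.0672 CPM in sham frontal cortex (SD, n = 8). Its log2 fold change was 3.45 (SE 0.297). This too is a description, since its highest sham frontal level was 0.244 CPM and it passed the filter through the hippocampus. Hist2h2ac, an H2A gene of chromosome 3, had means of 0.643 ± 0.325 and 0.0649 ± 0.0454 CPM, likewise a description. Hist1h2bm, Hist1h2al and Hist2h2ac lie under the mean of 1 CPM that the rule for named genes asks, and were chosen after their values were seen.

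**Figure D2:**
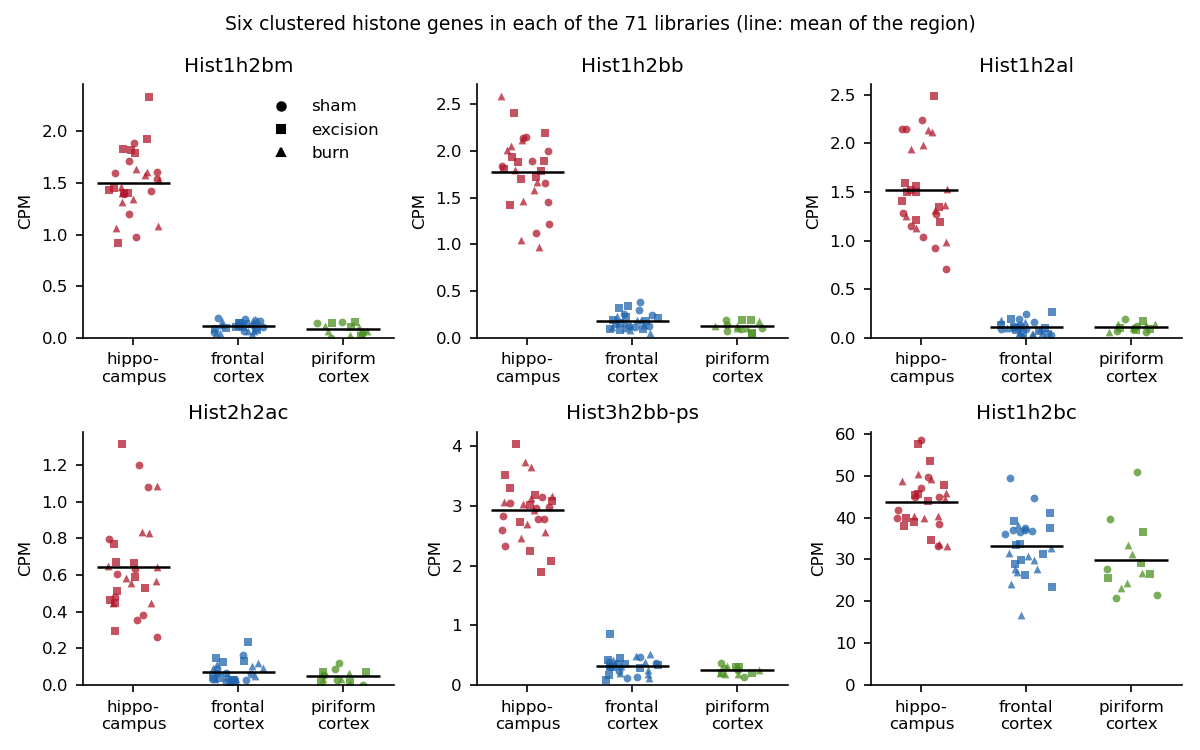
CPM of 6 members in each of the 71 libraries, by region, with symbols for treatment and a line at the mean of the region. The hippocampal libraries of Hist1h2bm, Hist1h2bb, Hist1h2al, Hist2h2ac and Hist3h2bb-ps stand above the cortical ones, while those of Hist1h2bc overlap with them.

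A larger set of H2B genes was present in both regions and higher in the hippocampus by a smaller factor. Hist1h2bp was at 3.30 to 6.33 CPM in sham hippocampus (median 5.17) and at 1.34 to 1.95 in sham frontal cortex (median 1.49), without overlap and with a log2 fold change of 1.64 (SE 0.128, edgeR adjusted p = 2.7e-09). Hist1h2ba was at 5.53 ± 1.45 against 2.25 ± 0.492 CPM (log2 fold change 1.29), and Hist1h2bj at 5.60 ± 1.30 against 2.39 ± 0.563 CPM (1.22). Both genes share windows of a read's length, so they may not be separate measurements. The log2 fold changes of Hist1h2bh, Hist1h2bl, Hist1h2br and Hist1h2bq were 0.96, 0.90, 0.81 and 0.81, with edgeR adjusted p of 2.9e-05 to 4.9e-05. The leading H2A gene, Hist3h2a, was at 15.3 to 23.9 CPM against 8.44 to 12.4 CPM, again without overlap (log2 fold change 0.71, SE 0.105, edgeR adjusted p = 1.7e-05).

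The 3 H2B genes of highest level per kilobase, Hist1h2bc, Hist3h2ba and Hist1h2bg, were not among them. Hist1h2bc was at 44.2 ± 7.27 CPM in sham hippocampus and 39.4 ± 4.91 CPM in sham frontal cortex, and the ranges overlapped. Its log2 fold change was 0.16, with a 95% interval of -0.023 to 0.33 (edgeR adjusted p = 0.188). The intervals were -0.12 to 0.40 for Hist3h2ba, -0.22 to 0.24 for Hist1h2bg, -0.012 to 0.35 for Hist1h2be and -0.28 to 0.26 for Hist2h2be. For these 5 H2B genes the intervals stay under the estimates of Hist1h2bl and Hist1h2bh. Hist1h1c had an estimate of -0.14 (-0.38 to 0.11) and Hist2h3c2 one of -0.30 (-0.59 to -0.023, edgeR adjusted p = 0.100). Among H4 genes, Hist1h4m, Hist1h4n and Hist1h4f were higher by 1.11, 1.15 and 1.62 on the log2 scale, while Hist1h4k (0.50, edgeR adjusted p = 0.0501) and Hist1h4h (0.42, edgeR adjusted p = 0.0915) were not called.

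**Figure D3:**
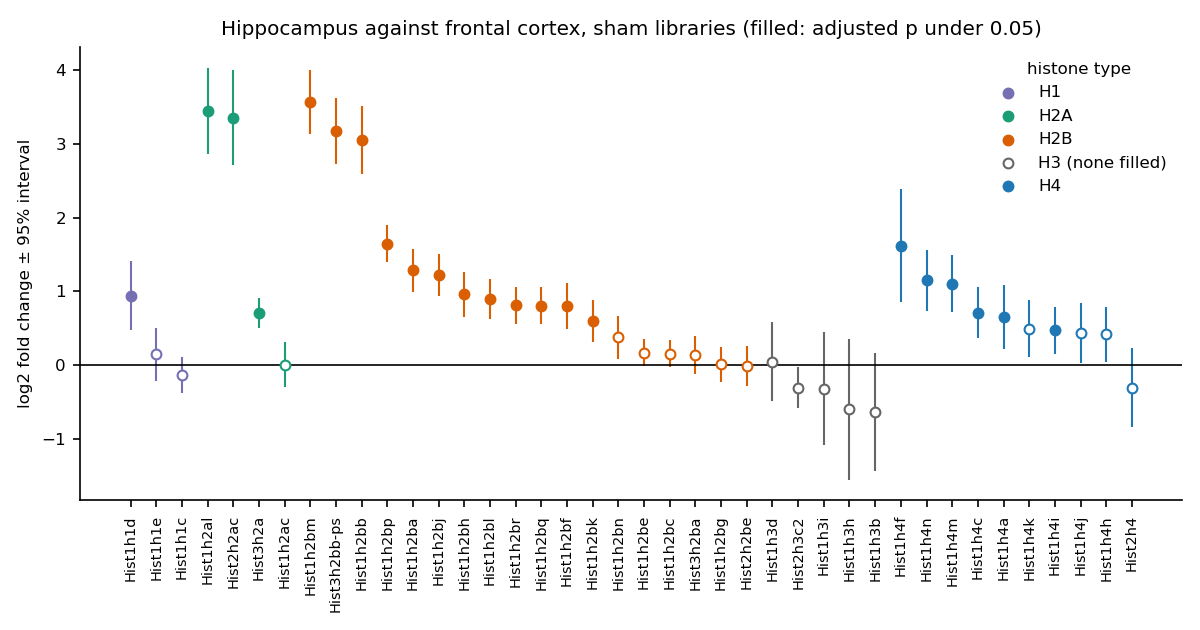
Log2 fold change with 95% interval of the 40 members tested between sham hippocampus and sham frontal cortex, by histone type, filled where the adjusted p is under 0.05. Filled points reach from 0.47 to 3.57 and all lie above 0, including Hist1h2bm and Hist2h2ac, which had to by the filter, while the 5 H3 genes are open and lie between -0.64 and 0.05.

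By position, and among the same 38, 9 of 14 members of the first block of chromosome 13 were higher in the hippocampus (median 0.70), 8 of 17 of the second block (0.42), 2 of 3 on chromosome 11 and 0 of 3 on chromosome 3. Members with an annotated transcript over 100 bases past the stem-loop had 6 of 16 called and a median of 0.16. The remaining members had 14 of 22 called and a median of 0.81. Markers moved with the region as well: 8 of the 9 dentate and hippocampal markers were higher (median log2 fold change 3.06), with sums of 607 to 859 CPM in sham hippocampus and 223 to 409 CPM in sham frontal cortex. Choroid plexus markers were higher for 4 of 5, and cortical layer markers were lower for 5 of 7. Neuroblast markers were higher for 1 and lower for 3 of 5. Their part in the histone differences was not tested.

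Without the 15 hippocampal libraries that held over 100 CPM of Ttr (5 of them sham), 17 members were called, 16 higher and 1 lower, and the 16 higher ones were among the 22. The lower one was Hist2h3c2, with a log2 fold change of -0.60 (edgeR adjusted p = 0.00962). This selection was made after the data were seen and leaves 4 sham hippocampus libraries. The share of all genes called in it is not given here.

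Against the piriform cortex, 27 of 39 members tested were higher in sham hippocampus and 0 were lower, against 34.8% of all genes called in either direction and 18.6% called higher. Of these, 5 had 0 piriform libraries at the filter's minimum and had to be higher: Hist1h2bm, Hist1h2bb, Hist1h2al, Hist1h4f and Hist2h2ac. Of the other 34 members, 22 were higher, and Hist3h2bb-ps had the highest log2 fold change of them, 3.28. In piriform cortex sham replicate 1 it was at 0.142 CPM, under the filter's minimum of 0.261 CPM in 5 libraries. The hippocampus thus helped it to pass. The piriform libraries form a batch of their own, so region and batch cannot be told apart. Leaving out the library labelled piriform cortex sham replicate 1, which held hippocampal markers yet had Hist1h2bm at 0.035 CPM, gave 31 calls. Without the Ttr libraries, 18 were called, all of them among the 27. The shares of all genes called in these refits are not given here. This comparison and the previous one share the sham hippocampus libraries.

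Between the cortices, 0 of 39 members were called, against 8.79% of all genes. At an unadjusted p under 0.05 there were 3, against 23.3% of genes: Hist1h4i, Hist2h3c2 and Hist3h2ba, with log2 fold changes of -0.59, -0.49 and -0.42 (edgeR adjusted p = 0.192, 0.196 and 0.196). With the libraries of all treatments in the fit, or without piriform cortex sham replicate 1, 2 were called. DESeq2 gave 0 for the sham libraries. The low level of the 5 hippocampus-high genes above was shared by both cortices, at means of 0.058 to 0.265 CPM in sham piriform cortex. These means include piriform cortex sham replicate 1, the library with hippocampal markers. It held Hist1h2bb at 0.195, Hist1h2al at 0.0709, Hist2h2ac at 0.0532 and Hist3h2bb-ps at 0.142 CPM, low like its Hist1h2bm. Why they were low there was not tested.

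After burn, 4 H2B genes were lower in the frontal cortex. Of 39 members tested, Hist1h2bq, Hist1h2br, Hist1h2bp and Hist1h2bl were lower than in sham and 0 were higher. The 4 lie in the first block of chromosome 13, which holds 8 H2B genes. Over all 21077 genes tested, 0.28% were called and 0.119% were called lower. Since Hist1h2bq and Hist1h2br share their reads, the 4 calls stand for at most 3 measurements. They encode canonical H2B, and each was 1.51 times lower.

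Hist1h2bq (chromosome 13, 21806612 to 21810197) was at 4.09 to 7.33 CPM in sham (median 4.67), at 3.27 to 4.74 in excision (median 3.79) and at 2.37 to 4.25 in burn (median 3.54). In batch 1 the burn libraries held 3.62, 3.46, 3.11, 2.66 and 3.03 CPM and the sham libraries 7.33, 4.68, 4.61, 4.67 and 4.09. In batch 2 the burn libraries held 3.91, 2.37, 4.25, 3.78 and 3.82 CPM and the sham libraries 4.57, 4.86 and 5.74. Burn and sham did not overlap within either batch, while a burn library of batch 2 at 4.25 CPM lay above a sham library of batch 1 at 4.09 CPM. The means were 5.07 ± 1.02 in sham (SD, n = 8), 3.92 ± 0.585 in excision (SD, n = 10) and 3.40 ± 0.595 CPM in the burn group (SD, n = 10). Against sham, burn differed by a log2 fold change of -0.59 (SE 0.118, edgeR adjusted p = 0.0205), and Hist1h2br gave the same within rounding (-0.59, SE 0.118, edgeR adjusted p = 0.0207).

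Hist1h2bp (21787461 to 21789213) was at 1.34 to 1.95 CPM in sham (median 1.49), 0.833 to 1.56 in excision (median 1.15) and 0.80 to 1.26 in burn (median 1.05). Every burn library lay below every sham library, over both batches. That held for 1 of 39 members (2.56%) and for 7 of the 21077 genes (0.0332%). The log2 fold change was -0.60 (SE 0.130, edgeR adjusted p = 0.0404). Hist1h2bl (21715763 to 21716143) was at 2.04 to 3.90 CPM in sham (median 2.24) and 1.26 to 2.09 in burn (median 1.70), with a log2 fold change of -0.60 (SE 0.136, edgeR adjusted p = 0.0495). Its groups did not overlap in batch 1 and overlapped in batch 2. Its highest sham value, 3.90 CPM, belongs to replicate 1, the library that stood apart.

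**Figure D4:**
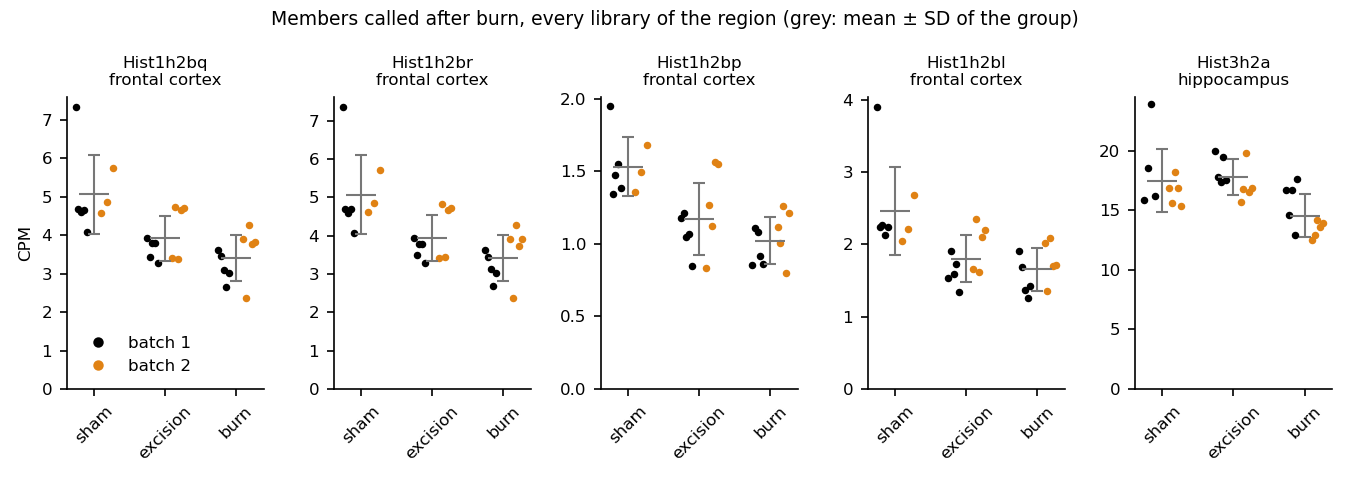
CPM in every library, by treatment and with batch in colour, of the members called after burn: Hist1h2bq, Hist1h2br, Hist1h2bp and Hist1h2bl in the frontal cortex and Hist3h2a in the hippocampus, with the mean ± SD of each group. For Hist1h2bp the burn libraries reach up to 1.26 CPM and the sham libraries begin at 1.34 CPM, while excision lies across both.

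The remaining frontal members leaned the same way without being called. Of the 39 estimates, 37 were below 0, and 24 members had an unadjusted p under 0.05, against 13% of all genes. The median was -0.58, against -0.016 over all genes. By type, the medians were -0.30 for H1 (3 tested), -0.32 for H2A (2), -0.56 for H2B (18), -0.71 for H3 (6) and -0.71 for H4 (10), and all 4 calls fell in H2B. The next by p were Hist1h2bg (-0.54, edgeR adjusted p = 0.0562) and Hist1h2bk (-0.62, 0.0587). Hist1h2bc was at 36.1 to 49.5 CPM in sham, 23.4 to 41.0 in excision and 16.7 to 38.2 in burn, a log2 fold change of -0.48 (edgeR adjusted p = 0.0664), and Hist1h2be gave -0.58 (0.0659). The ranges of Hist1h2bc thus overlapped, although 9 of 10 burn libraries lay below the lowest sham library.

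Of the other types, Hist1h4h was at 1.34 to 3.69 CPM in sham and 0.583 to 1.75 in burn (log2 fold change -0.72, SE 0.207, edgeR adjusted p = 0.122), and Hist2h3c2 gave -0.64 (0.155). Hist1h1c was at 19.3 ± 3.77 CPM in sham and 15.9 ± 3.87 in burn (-0.30, edgeR adjusted p = 0.450). Hist2h3c2 lies on chromosome 3. Of the other members outside chromosome 13, Hist2h2be gave -0.29, Hist3h2ba -0.19, Hist3h2a -0.16 and Hist2h4 +0.30, with edgeR adjusted p of 0.504 to 0.675. The 15 members tested in the first block had a median of -0.60, the 18 in the second block -0.52 with 0 called, the 3 on chromosome 11 -0.16 and the 3 on chromosome 3 -0.29. That chromosomes or blocks differ was not tested.

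Summed over the H2B members, the frontal cortex held 113 ± 18.2 CPM in sham (SD, n = 8; 100.3 to 154), 94.1 ± 12.8 in excision (SD, n = 10; 74.9 to 118) and 83.7 ± 14.3 in burn (SD, n = 10; 57.5 to 107). The sum over H4 members was 10.4 ± 3.11 CPM in sham and 7.22 ± 2.11 in burn, and that over H3 members 10.7 ± 1.77 and 6.92 ± 2.50. Excision lay between sham and burn in the H2B sum, and burn and sham overlapped. Within batches, every burn library lay below every sham library for 10 of 39 members in batch 1 (25.6%, against 3.96% of genes) and for 5 in batch 2 (12.8%, against 2.64%).

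The frontal calls depended on single libraries. With each library left out in turn, 0 to 9 members were called, with 0 calls without burn replicate 3, burn replicate 4 or sham replicate 8. Without sham replicate 1, 2 members were called and the median of the members was -0.46. Without the 3 libraries whose titles name another treatment, Hist1h2bq and Hist1h2br (-0.57 each, edgeR adjusted p = 0.0357) and Hist1h2bc (-0.45, edgeR adjusted p = 0.047) were called. Hist1h2bp (-0.62, edgeR adjusted p = 0.0712) and Hist1h2bl (-0.59, edgeR adjusted p = 0.0782) then lost their calls. Batch 1 alone gave 9 calls (Hist1h2bq -0.68), and batch 2 alone, with 3 sham libraries, gave 0 (Hist1h2bq -0.46, unadjusted edgeR p = 0.0348). In batch 1 alone Hist1h2bl was called at an unadjusted edgeR p of 0.00116 (adjusted 0.0332). In the main fit its unadjusted edgeR p was 0.000136 (adjusted 0.0495). Calls were thus commoner over all genes in batch 1 alone, and its 9 calls do not compare directly with the main fit. A difference of the burn effect between the batches was called for 0 of 39 members and 0% of genes, with 0 members, and 19.4% of genes, at an unadjusted p under 0.05. DESeq2's Wald test called 13 members and a fit without the batch term 2. No filter on counts gave 0 calls (Hist1h2bq -0.58, edgeR adjusted p = 0.0645), as did the replicate number as a block (Hist1h2bq -0.57, edgeR adjusted p = 0.143), so the estimates stayed near the -0.59 above while the calls were lost.

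Beside the lower histone levels, choroid plexus markers in frontal burn libraries had a median log2 fold change of -1.03, neuroblast markers of -0.46, endothelial markers of -0.29, astrocyte markers of -0.21 and neuronal markers of +0.18. Of the markers, 1 was called lower, Gpr17 of oligodendrocyte precursors, and 0 were called higher. The choroid plexus sums were low throughout, 8.39 to 21.5 CPM in sham and 3.26 to 24.8 CPM in burn. Neuroblast sums ranged from 44.4 to 151 CPM in sham and from 33.4 to 205 CPM in burn. The part of these cell types in the histone difference was not tested. Among genes that act on histones, only Chaf1a, a subunit of the CAF-1 chaperone that deposits H3 and H4 on new DNA, was called, at +0.54 (SE 0.104, edgeR adjusted p = 0.0203), as 1 of 14 chaperones tested. Of 12 variant histone genes, 14 genes of histone 3′ end processing and 20 genes of proliferation, 0 were called.

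Excision against sham in the frontal cortex called 0 of 39 members and 0% of all genes, with 10 members and 4.78% of genes at an unadjusted p under 0.05 and 0 members called by DESeq2. The smallest p-values were those of Hist1h2bl (-0.47), Hist1h2bq (-0.39) and Hist1h2br (-0.39), each with an edgeR adjusted p of 0.806, and the median of the members was -0.27. Burn against excision also called 0, against 0.209% of genes, with 7 members and 11.6% of genes at an unadjusted p under 0.05. Hist1h4i, Hist1h3d and Hist1h4m came first at -0.62, -0.73 and -0.67 (edgeR adjusted p = 0.158, 0.299 and 0.313), and DESeq2 called 1 member. The 3 comparisons of a region share their libraries in pairs, so their values are not independent.

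**Figure D5:**
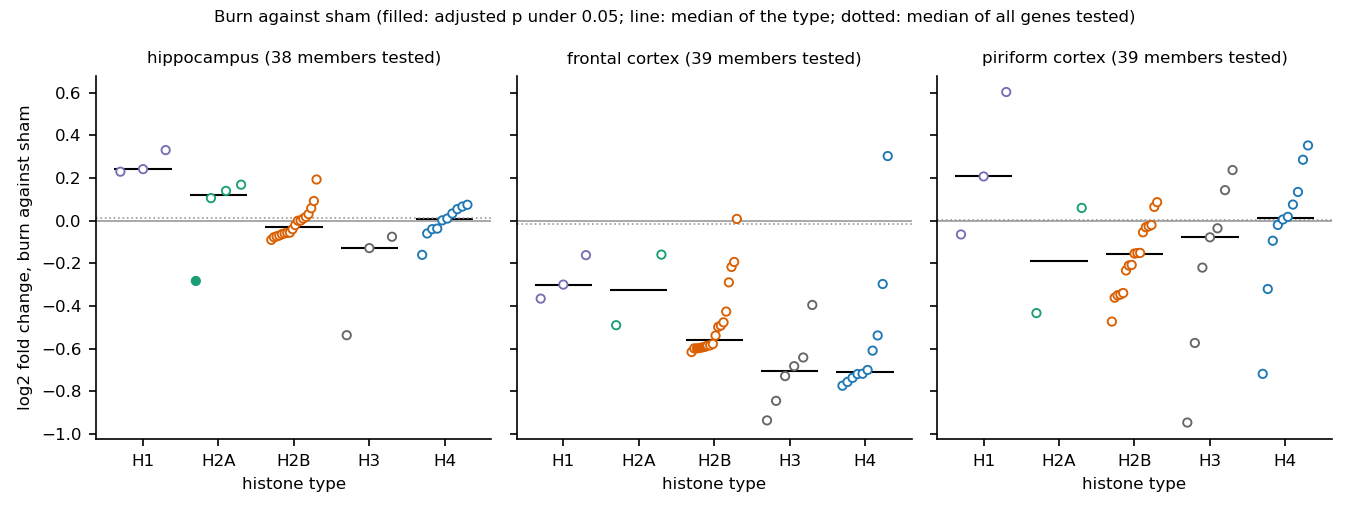
Log2 fold change of burn against sham for the members tested in each region, by histone type, with the median of each type as a line, the median of all genes dotted and called members filled. In the frontal cortex the type medians lie between -0.30 and -0.71, while those of H2B are -0.03 in the hippocampus and -0.15 in the piriform cortex.

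In the hippocampus 1 member passed the test after burn, an H2A gene. Hist3h2a (chromosome 11, 58954685 to 58956830), which encodes a replication-type H2A outside the large clusters, was the 1 member called of 38, and it was lower, against 1.03% of the 19574 genes called and 0.741% called lower. It was at 15.3 to 23.9 CPM in sham (median 16.8), 15.7 to 20.0 in excision (median 17.5) and 12.5 to 17.6 in burn (median 14.0). In batch 2 the burn libraries held 12.5, 12.9, 14.2, 13.6 and 13.9 CPM and the sham libraries 16.9, 15.6, 18.2, 16.8 and 15.3. In batch 1 they held 16.7, 14.6, 16.7, 12.9 and 17.6 CPM against 15.9, 18.5, 23.9 and 16.2. Burn and sham were thus separate in batch 2 and overlapped in batch 1. In batch 2 every burn library lay below every sham library for 1 of 38 members (2.63%) and for 0.986% of genes. A difference of the burn effect between the batches was called for 0 of 38 members, against 0.046% of genes, with 0 members and 16.2% of genes at an unadjusted p under 0.05.

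The mean of Hist3h2a was 17.5 ± 2.64 CPM in sham (SD, n = 9), 17.8 ± 1.48 in excision (SD, n = 10) and 14.6 ± 1.81 in the burn group (SD, n = 10). Its log2 fold change was -0.28 against sham (SE 0.0683, edgeR adjusted p = 0.0389) and -0.30 against excision (SE 0.0667, edgeR adjusted p = 0.0455). In the latter comparison it was also the 1 member called of 38, against 0.209% of genes. Without sham replicate 3, which holds the 23.9 CPM and also 34.7 CPM of the neutrophil gene S100a8, the value was -0.23 (edgeR adjusted p = 0.0766). The calls also depended on the fit. With no filter on counts the edgeR adjusted p was 0.0579 against sham and 0.084 against excision, without the batch term 0.0941 and 0.0991, in batch 1 alone 0.18 and 0.235, and in batch 2 alone 0.173 and 0.282. Against excision it was also lost with the replicate block (0.0718) and without the libraries under 10000000 counts (0.105). The log2 fold changes in these fits lay between -0.26 and -0.35. The call against sham remained in 18 of 29 fits that left out a library, and that against excision in 10 of 29. Trim17, whose exons overlap those of Hist3h2a, was also lower after burn, with a log2 fold change of -0.40 against sham (edgeR adjusted p = 0.00906), and reads of the 2 genes may not be separable.

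The genes that were lower in the frontal cortex did not stand out in the hippocampus. Hist1h2bq was at 8.95 ± 1.81 CPM in sham and 8.67 ± 1.56 in burn (log2 fold change -0.06, edgeR adjusted p = 0.791). Of 18 H2B genes tested, 0 were called, with a median of -0.03, and Hist1h1c gave +0.23 (edgeR adjusted p = 0.279). Excision against sham called 0 of 38 members and 0% of all genes, with 4 members and 3.71% of genes at an unadjusted p under 0.05, led by Hist1h2ac at +0.44 (edgeR adjusted p = 0.852). DESeq2 called 0 there. Choroid plexus markers had a median of +0.86 after burn with 0 called, and their sums ranged from 42.2 to 5304 CPM in sham and from 39.8 to 6818 CPM in burn. Among the other histone genes, H1f0, the linker variant of non-dividing cells, was higher after burn by 0.21 (edgeR adjusted p = 0.0291), and Srrt, a cap-binding partner in RNA processing, was lower, at -0.35 (edgeR adjusted p = 0.0432).

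That the burn effect differs between these regions was tested directly, in a fit added after the data were seen. The difference was called for 0 of 46 members and 0% of 21610 genes. The frontal minus the hippocampal effect was -0.57 for Hist1h2bg, -0.59 for Hist1h2bp and -0.51 for Hist1h2bq (edgeR adjusted p = 0.271, 0.296 and 0.302). At an unadjusted p under 0.05 there were 25 members, against 8.55% of genes. For excision the difference was called for 0 members and 0% of genes, with 18 members and 7.05% of genes at an unadjusted p under 0.05. Without frontal cortex sham replicate 1 and hippocampus sham replicate 3, 0 members were called for burn or excision. At an unadjusted p under 0.05 there were then 18 members for burn (7.00% of genes) and 12 for excision (8.38% of genes), and the median over the members for burn was -0.46, against -0.56 with them.

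In the piriform cortex 0 of 39 members were called in any of the 3 comparisons, as were 0% of the 21004 genes. At an unadjusted p under 0.05 there were 0 members for burn against sham, 1 for excision against sham and 1 for burn against excision, against 4.27, 5.25 and 7.89% of genes, and DESeq2 called 0. Hist1h2bq was at 2.04 to 5.80 CPM in sham, 2.73 to 4.74 in excision and 2.56 to 4.25 in burn, so the groups overlapped. Its estimate for burn was -0.15 (edgeR adjusted p = 0.926). The sham libraries there had a mean of 3.73 CPM and an SD of 1.50 CPM.

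Batches differed more than treatments in the hippocampus. Of 38 members, 20 were lower in batch 2 than in batch 1 and 0 were higher, against 16.4% of genes called and 8.54% called lower. They were 14 of 18 H2B, 3 of 4 H2A, 2 of 3 H1, 1 of 3 H3 and 0 of 10 H4 genes. Hist2h3c2 was at 7.12 to 14.2 CPM in batch 1 (median 8.77, n = 14) and at 4.55 to 7.88 in batch 2 (median 5.67, n = 15), a log2 fold change of -0.67 (SE 0.0866, edgeR adjusted p = 4.2e-06). Its ranges overlapped only between 7.12 and 7.88 CPM.

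Hist1h2bg was at 13.0 ± 1.82 and 9.68 ± 1.09 CPM (log2 fold change -0.42, edgeR adjusted p = 9.4e-05), Hist1h2bc at 48.3 ± 5.73 and 39.5 ± 4.28 (-0.29, 0.00143), and Hist1h1c at 22.1 ± 4.10 and 16.6 ± 3.04 (-0.40, 0.00269). Hist1h2bf, Hist1h2ba, Hist1h2bh, Hist1h2bj, Hist1h2br and Hist1h2bq lay between -0.35 and -0.40. The variant genes H2afj, H2afv and H3f3c were lower as well (-0.45, -0.25 and -0.24), while H3f3a was higher (+0.13). Batch 1 holds the 4 libraries under 10000000 counts, and what the batches differ in is not given in the sources used here. Sham libraries alone called 0 members. In the frontal cortex 0 of 39 members were called between batches, against 10% of genes, with 6 members and 26.4% of genes at an unadjusted p under 0.05 and Hist3h2ba first at +0.29 (edgeR adjusted p = 0.0685).

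Outside the clusters, the genes that go with histones differed between the regions in both directions. In sham hippocampus against sham frontal cortex, 3 of 12 variant histone genes tested were higher, H1fx (0.52), Cenpa (0.44) and H2afj (0.41), and 3 were lower, H2afy2 (-0.61), H3f3b (-0.26) and H3f3a (-0.15). Of 14 genes of 3′ end processing, Lsm11, a part of the U7 particle that cuts histone pre-mRNA, was higher (0.47). Of 20 proliferation genes, Mcm6, a subunit of the replicative helicase, was higher (1.06) and 5 were lower, among them Ccnb1 (-1.46), Top2a (-0.87) and E2f1 (-0.73).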

How the data were processed

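The deposited values are whole-number counts per gene, which the authors gave in 1 table for 71 libraries (55416 Ensembl identifiers), from single-end reads of 100 bases. Per the submitters' processing notes, the tools were fastp, STAR, FastQC 0.11.3 and DESeq2 1.24.0, and the build GRCm38. The sources used here do not give the counting program, annotation release, strand setting or treatment of reads that match several genes. GENCODE M21 gave symbols to 52083 identifiers, and the 3333 others held 0.847% of the counts. The members and gene lists were chosen with earlier results of these data known.

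Each region was fitted over all its genes in R 4.3.3 with edgeR 4.0.16 (filterByExpr, TMM, quasi-likelihood F test). Batch was an additive term of the fits of hippocampus, frontal cortex and their sham comparison. Benjamini-Hochberg adjustment ran over all genes tested, and genes were called at an adjusted p under 0.05. Only the hippocampus fit of burn against sham was tried on simulated counts, which held known changes and no batch effect. Libraries were treated as independent and grouped by the treatment and tissue fields. Levels are CPM with TMM factors of the region, given as mean ± SD over libraries, and the number of libraries and the counts per gene limit their precision.

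The text names every member called between treatments, the 10 called members with the smallest p and a mean of at least 1 CPM in batch and region comparisons, the 2 highest of each type per kilobase, and Hist1h1c, Hist1h2bc, Hist1h2be, Hist2h2be, Hist2h2aa1, Hist1h4h, Hist3h2a and Hist3h2ba. Where 0 were called, the 3 members with the smallest p are given. Called genes of the lists are named up to 3 per list and comparison, and other names were chosen after their values were seen. Alternatives were DESeq2 1.42.0, its size factors, no count filter, a block for the replicate number, fits without the batch term, batches fitted singly, all treatments in the region fits, libraries with disagreeing labels or under 10000000 counts left out, and every library dropped once. The fits without Ttr-rich libraries were added after the data were seen. So were the tests of whether the burn or excision effect differs between regions. They were run with all libraries and without frontal cortex sham replicate 1 and hippocampus sham replicate 3.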

Additional observations from a re-analysis of the deposited data

Results flagged for a closer look

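Histone sums per type and the called members Hist1h2bq, Hist1h2br, Hist1h2bp, Hist1h2bl and Hist3h2a were examined in the 9 groups of libraries for a highest or lowest library far from the rest. This gave 11 flags among 90 group tests, where chance gives about 1 in 20 groups.

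Frontal cortex sham replicate 1 was the highest of its group in 4 of them. Its H1 sum was 29.1 CPM (other sham libraries 17.2 to 21.9), its H2B sum 154 CPM (100.3 to 125), its H4 sum 17.6 CPM (7.52 to 10.7) and its Hist1h2bl level 3.90 CPM (2.04 to 2.68). In the same group, sham replicate 5 had the lowest H3 sum, 6.44 CPM, against 10.7 to 11.9 CPM in the others. Frontal cortex burn replicate 8, whose title names another treatment, had an H4 sum of 12.2 CPM against 4.03 to 8.15 CPM in the other burn libraries.

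In the hippocampus, sham replicate 1 had an H1 sum of 33.1 CPM (others 15.1 to 24.1). It is also among the libraries under 10000000 counts and held 4988 CPM of Ttr. Hippocampus sham replicate 3 had an H2A sum of 29.4 CPM (others 17.2 to 22.5), and its Hist3h2a level was 23.9 CPM (others 15.3 to 18.5). In the piriform cortex, burn replicate 1 had an H1 sum of 29.97 CPM (others 13.0 to 17.4) and an H4 sum of 13.7 CPM (others 5.77 to 7.73). Causes of these values were not tested.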

How the results depend on the processing

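Of the results that count called members or give type shares, 85 stayed the same under an alternative and 23 moved. Same meant within 1.5 times for counts and within the SD over libraries for shares. The estimates of named members stayed on their side of the threshold 171 times and lost the call 37 times, with 0 reversals of direction. In the frontal cortex, burn against sham gave 0 calls without a count filter, 13 with DESeq2, 0 with the replicate block, 2 without the batch term, 9 in batch 1 and 0 in batch 2, and burn against excision gave 1 with DESeq2. In the hippocampus, burn against sham gave 0 without a count filter, without the batch term, in batch 1 and in batch 2. Burn against excision there gave 0 under the same 4 settings, with the replicate block and without the libraries under 10000000 counts. The hippocampus batch difference gave 0 in sham libraries alone, and piriform against frontal cortex gave 2 with all treatments. The cause was not tested, beyond the fewer libraries of the batch and sham settings. The share of all genes called is not set beside these counts, so they do not compare directly between settings. Per kilobase, the type shares moved to 6.84% (H1), 4.98% (H2A), 71.9% (H2B) and 11.04% (H4). Leaving out each library in turn gave 0 to 9 calls for frontal burn against sham, 0 to 2 for the frontal batches, 0 to 1 for hippocampal burn against sham, 0 to 2 for burn against excision and 18 to 21 for its batches. It gave 21 to 26 for hippocampus against frontal cortex, 25 to 31 against piriform cortex, 0 to 2 between the cortices and 0 for the other comparisons. Equal replicate numbers had a median correlation of -0.0058 in the frontal cortex, 0.054 in the hippocampus and -0.057 in the piriform cortex, so the numbers were not taken to pair libraries. The replicate block gave 23 for hippocampus against frontal cortex, and could not be fitted for the batch and other region comparisons. Members under 0.1 CPM held too few counts for these tests.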

Other observations

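The members also varied together from library to library. After the mean of each treatment and batch group was subtracted from log2 CPM, pairs of H2B genes had a median Pearson r of 0.57 over the 29 hippocampus libraries (153 pairs), 0.62 over the 28 frontal libraries (105 pairs) and 0.78 over the 14 piriform libraries (105 pairs). Pairs of H4 genes in the hippocampus reached 0.73 (28 pairs), while pairs of an H2B and an H4 gene had 0.30 there and 0.56 in the frontal cortex. The values share the libraries, their depth and reads common to near-identical copies, and are descriptions.

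The genes outside the clusters that followed single members most closely differed by member. In the hippocampus, Hist1h1c went with Mgst1 and Odc1 (Pearson r 0.81 each, 29 libraries), Hist3h2a with Eid1 (0.82) and Hist3h2ba with Bex3 (0.87). In the frontal cortex, Hist1h1c again had Mgst1 first (0.89, 28 libraries), Hist1h2bc had Plin3 (0.89) and Hist2h3c2 had Sp9 (0.93). Hist1h4k had Wnt7a (0.87) and Dlx5 (0.86). They were picked as the highest or next highest of the correlations with all other genes tested over the same libraries.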
